A study of Mus musculus with 6 samples.

Results

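Accessible chromatin was examined around 47 interferon-stimulated genes outside the Gbp family in mouse bone marrow B-cells. The genes encode interferon receptor chains, sensors of foreign RNA, transcription factors, antiviral effectors, ubiquitin-like modifiers, immunity-related GTPases and components of antigen presentation. A peak of the deposited list was taken as theirs if it overlapped the gene body, or if it overlapped no protein-coding gene and one of the 47 was the nearest protein-coding gene within 100 kb in the RefSeq annotation of GRCm38. This gave 304 of the 97124 peaks, 174 in gene bodies and 130 between genes, and each of the 47 genes had at least 1 peak.

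The data were ATAC-seq, in which a transposase inserts sequencing adapters into open chromatin, from primary B-cells of mice that the labels call PEtg. All 6 samples came from these mice and were separated by H2B-GFP, a fluorescent histone that is diluted at each division. Cells with high H2B-GFP were labelled quiescent (n = 3 samples) and cells with low H2B-GFP proliferating (n = 3 samples). The labels give no age, no promoter for either transgene, no group without the PEtg background, and do not say whether the samples of a group came from separate mice. The p-values therefore speak only of how far these 6 samples scatter, part of which may be technical.

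Type I interferons bind a receptor made of the Ifnar1 and Ifnar2 chains, which activates the kinases Jak1 and Tyk2. A complex that holds the transcription factors Stat2 and Irf9 then binds the interferon-stimulated response element (ISRE), whereas interferon gamma acts through Ifngr1 and Ifngr2 and the kinases Jak1 and Jak2 on the gamma-activated site (GAS). The genes so induced block viral entry, detect and degrade viral RNA, and raise the display of antigens. In B-cells the same pathway is known to influence development and antibody responses.

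The deposited signal, a scaled value per peak and sample, summed to between 20904407 and 21518630 per sample. The reads in peaks, estimated from the steps of the signal, ranged from 14022752 to 28195601 in quiescent samples and from 8052610 to 48826677 in proliferating samples. The median peak held 42 to 76 reads in quiescent samples and 27 to 179 in proliferating samples, so proliferating sample 1 was the shallowest and proliferating sample 3 the deepest. All 10 B-cell markers checked had a peak at the gene start, with a summed signal per kb of 5299 to 5750 in quiescent and 5528 to 6682 in proliferating samples. Of 9 myeloid markers 5 had a start peak (none at Cebpa, Csf3r, Elane and Mpo), and their summed signal was 1164 to 1484 in quiescent against 674 to 726 in proliferating samples. The start peaks of the myeloid genes Csf1r, Fcgr3 and Ly6c2 were higher in quiescent samples, as was that of the plasmacytoid dendritic cell marker Siglech, and that of the B-cell gene Pax5 was lower. Over all tested peaks of each list, the B-cell markers had 4 higher and 2 lower of 204, the myeloid markers 7 and 3 of 54, and the plasmacytoid dendritic markers 3 and 4 of 98. The T and NK cell markers had 3 and 0 of 41, and the erythroid and megakaryocyte markers 0 and 1 of 27. Of all 87411 tested peaks, 4.01% were called higher and 2.72% lower in the test given below. Plasmacytoid dendritic markers summed to 841 to 967 in quiescent and 769 to 787 in proliferating samples over 4 of 6 genes, and T and NK cell markers to 478 to 753 and 553 to 600 over 2 of 8. Erythroid and megakaryocyte markers summed to 442 to 513 in quiescent and 446 to 867 in proliferating samples over 2 of 8 genes. The part of these other cell types in the results below was not tested, and in such bulk samples more cells with an open site and a more open site per cell cannot be told apart.

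The classic interferon-stimulated genes carry the ISRE core, GAAANNGAAA on either strand, close to their start. In RefSeq promoter windows of GRCm38.p6, from 250 bases before to 50 after the start, the core was found at 17 of the 40 genes with a window, in 18 of 49 windows (36.7%), against 3.44% of 32851 windows in all. The GAS core TTCNNNGAA, whose letters read the same on both strands, was found at 13 of the 40 genes (26.5% of windows), against 8.30% in all. The promoters of 6 genes are printed because their cores lie in peaks of the deposited list. For Irf2, Ifitm2, Rsad2 and Oas3 another peak of the same gene was higher in quiescent samples. Ifit1 had a start peak that passed the threshold in the paired fit, and Isg15 holds a run of overlapping cores. The 250 bases before the start are printed 5′ to 3′ on the strand of the gene, with ISRE cores in capitals and position -1 next to the start.
Isg15 (chr4:156200819-156201068, minus strand; cores from -78, -72 and -66): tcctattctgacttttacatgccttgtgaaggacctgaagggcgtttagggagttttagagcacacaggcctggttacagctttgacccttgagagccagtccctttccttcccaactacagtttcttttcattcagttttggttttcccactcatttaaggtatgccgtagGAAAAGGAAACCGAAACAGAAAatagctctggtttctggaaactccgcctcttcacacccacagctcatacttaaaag
Ifit1 (chr19:34640639-34640888, plus strand; cores from -104 and -85): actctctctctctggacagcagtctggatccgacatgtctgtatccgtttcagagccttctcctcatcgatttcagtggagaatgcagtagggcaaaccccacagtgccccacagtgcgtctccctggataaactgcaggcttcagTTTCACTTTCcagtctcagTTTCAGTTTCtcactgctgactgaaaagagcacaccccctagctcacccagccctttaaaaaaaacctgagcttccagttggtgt
Rsad2 (chr12:26456453-26456702, minus strand; core from -120): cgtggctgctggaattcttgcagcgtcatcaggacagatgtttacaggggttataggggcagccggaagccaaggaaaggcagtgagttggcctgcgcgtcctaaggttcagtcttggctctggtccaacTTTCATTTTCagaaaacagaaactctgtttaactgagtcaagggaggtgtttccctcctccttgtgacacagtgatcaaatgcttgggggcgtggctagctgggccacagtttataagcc
Oas3 (chr5:120777660-120777909, minus strand; core from -75): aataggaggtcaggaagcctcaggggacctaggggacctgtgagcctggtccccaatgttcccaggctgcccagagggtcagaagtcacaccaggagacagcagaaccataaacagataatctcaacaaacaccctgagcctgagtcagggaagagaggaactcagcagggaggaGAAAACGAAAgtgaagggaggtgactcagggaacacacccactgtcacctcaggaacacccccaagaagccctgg
Irf2 (chr8:46739495-46739744, plus strand; core from -241): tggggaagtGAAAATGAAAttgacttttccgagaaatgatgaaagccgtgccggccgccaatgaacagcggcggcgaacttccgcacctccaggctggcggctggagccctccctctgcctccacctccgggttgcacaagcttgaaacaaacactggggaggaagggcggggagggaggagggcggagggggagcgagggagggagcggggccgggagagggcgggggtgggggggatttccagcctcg
Ifitm2 (chr7:140955962-140956211, minus strand; core from -46): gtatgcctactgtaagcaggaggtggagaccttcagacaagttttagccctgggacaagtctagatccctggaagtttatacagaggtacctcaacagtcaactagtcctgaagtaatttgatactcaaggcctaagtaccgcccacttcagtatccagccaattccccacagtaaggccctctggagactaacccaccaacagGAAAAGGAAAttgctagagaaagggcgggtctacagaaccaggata

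The comparison the study was designed for sets quiescent against proliferating B-cells. Of the 290 tested peaks of the interferon-stimulated genes, 20 were called at an adjusted p under 0.05 (background 6.72% of all tested peaks), 19 of them higher in quiescent samples. With other settings more were lower, 13 of 35 with reads scaled to totals and 11 of 54 with the replicate number as a block. Irf2, Ifngr1 and the Ifitm cluster together held 13 of the 20 called peaks and 83 of the 290 tested, and all 13 were higher in quiescent samples. This grouping was made from the calls themselves, so its share of them is no separate result. Single peaks of Irf1, Rsad2, Oas3, Usp18 and Nlrc5 were also higher. Ifnar1 had 1 peak higher and 1 lower, and 36 of the 47 genes had no called peak. At gene starts 0 of 72 peaks passed the threshold, where the background was 2.73%.

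In the test over all peaks (limma on log2 of signal + 1, Benjamini-Hochberg adjusted p under 0.05), 290 of the 304 peaks were tested. The other 14 were among the weakest 10% of all peaks. Of the 290, 19 were higher in quiescent samples and 1 was lower, or 6.90% called, against 6.72% of the 87411 peaks tested. The share called was thus near the background. By direction, 6.55% of the tested peaks of these genes were higher, against 4.01% of all peaks, and 0.345% were lower, against 2.72%. The median log2 difference, quiescent minus proliferating, was 0.12 for these peaks and -0.01 for all tested peaks. It was above 0 at 178 of the 290 peaks (61.4%), against 49.3% of all. Quiescent and proliferating values did not overlap at 91 of the 290 peaks (31.4%), against 30.4% of all tested peaks. Without overlap, quiescent samples were higher at 64 of the 290 (22.1%), against 15.4% of all tested peaks, and lower at 27 (9.31%), against 14.9%.

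These counts rest on the samples included. Leaving out sample 1 gave 19 called peaks for the quiescent and 30 for the proliferating one. Leaving out sample 2 gave 1 for the quiescent and 2 for the proliferating one, and leaving out sample 3 gave 0 for the quiescent and 3 for the proliferating one. In that fit without quiescent sample 3 limma called none of all tested peaks either. It gave 55 of the 290 an unadjusted p under 0.05 (41 higher), against 16512 of the 87411 tested, a like share. With the replicate number as a block, 54 of the 290 were called (18.6%, against 18.3% of all tested peaks), and all of the 20 were among them. By direction the block called 43 higher, against 10.2% of all peaks, and 11 lower, against 8.14%. With reads scaled to library totals, all tested peaks had a median log2 difference of -0.26 and these peaks one of -0.09, so they lay 0.17 above the median of all peaks. That scaling called 22 higher and 13 lower of the 290, against 5.01% higher and 9.9% lower of all tested peaks (14.9% in all). Median-of-ratios scaling called 41 higher and 4 lower, against 9.98% and 3.99% (14% in all). The groups did not overlap at any of the 20 peaks, so leaving out 1 sample could not change their sign. All 20 also kept their sign with library totals, and 18 of them passed the threshold with totals and 20 with median-of-ratios scaling.

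**Figure D1:**
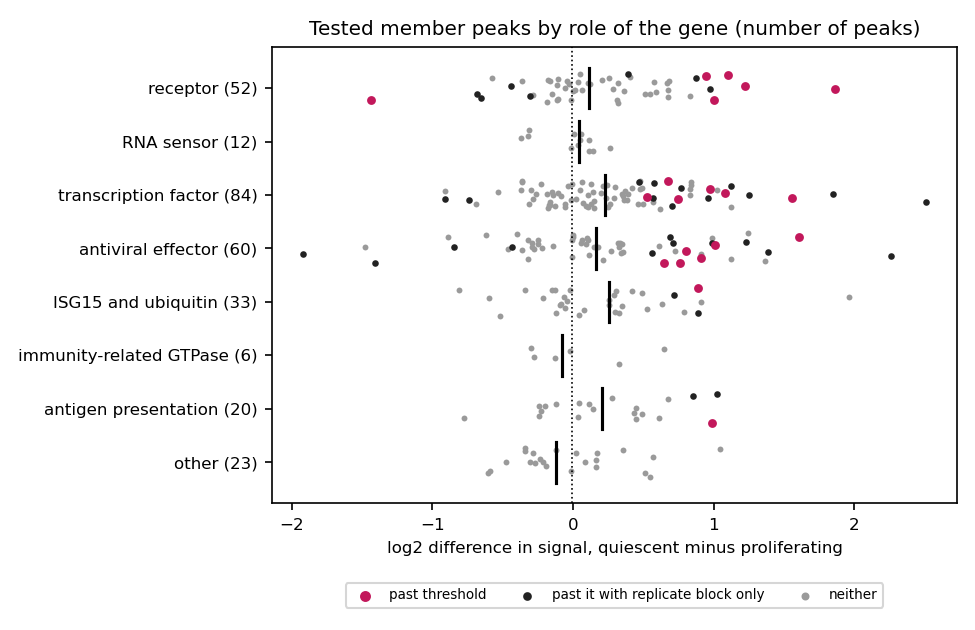
Log2 difference in signal, quiescent minus proliferating, of the 290 tested peaks of the interferon-stimulated genes, 1 point per peak, in rows by the role of the gene with the number of peaks in brackets. Large red points passed the threshold, black points passed it with the replicate block alone, grey points passed neither, and the upright bar is the median of the row, highest at 0.25 for ISG15 and ubiquitin genes and lowest at -0.12 for the others.

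**Figure D2:**
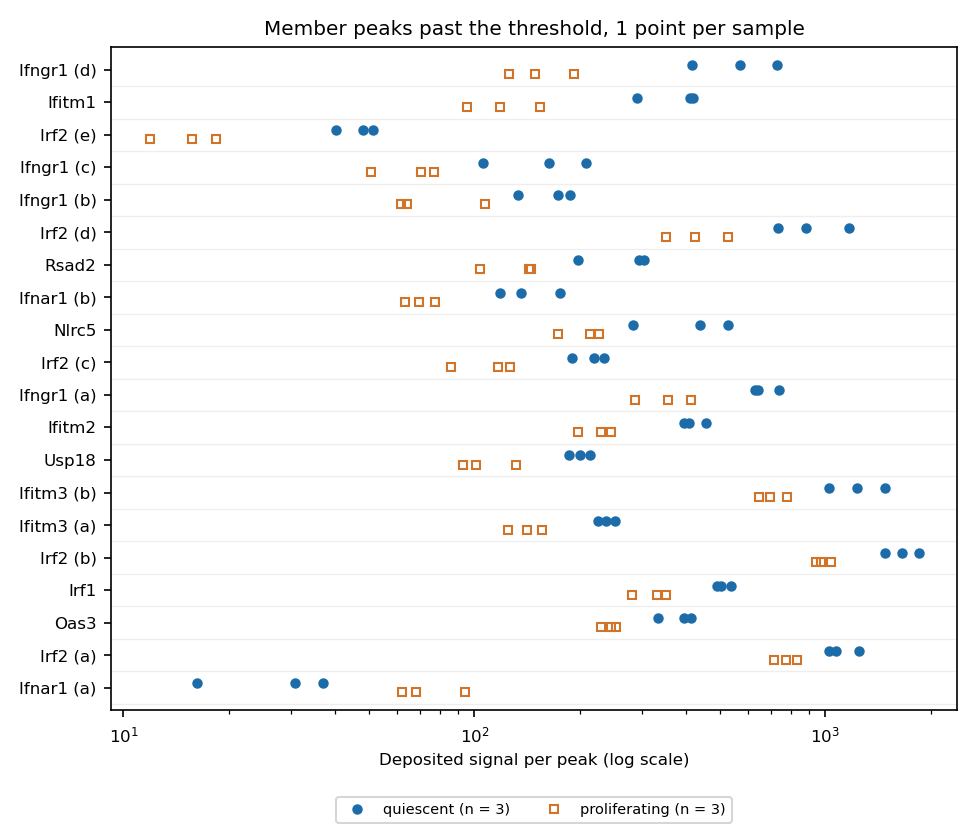
Deposited signal (log scale) of the 20 called peaks in each of the 3 quiescent samples (blue circles) and 3 proliferating samples (orange squares), 1 row per peak, ordered by log2 difference with the highest at the top; letters number the peaks of 1 gene from the lowest difference up. The groups do not overlap in any row, and the lowest row, a peak of Ifnar1, is the row in which proliferating samples are higher.

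Among the receptor genes, 5 of 52 tested peaks were called higher in quiescent samples (9.62%, against 4.01% of all tested peaks) and 1 lower (1.92%, against 2.72%). The median log2 difference was 0.12, or -0.05 with totals, where 35 of the 52 lay above the median of all peaks. Of the higher peaks, 4 belonged to Ifngr1, the chain of the interferon gamma receptor that binds the ligand, which had 19 tested peaks with a median of 0.51, or 0.06 with totals and 0.33 with median-of-ratios scaling. All of these lay between genes, at 96.7, 87.1, 85.1 and 31.8 kb before the start of Ifngr1 on chromosome 10.

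The peak at chr10:19505784-19506823 (mm10) had a signal of 572, 416 and 728 in quiescent samples 1, 2 and 3, against 148, 125 and 192 in proliferating samples 1, 2 and 3. Every quiescent sample was thus above every proliferating one. The means were 572 ± 156 in quiescent and 155 ± 33.7 in proliferating samples (SD, n = 3 each), with a log2 difference of 1.86 ± 0.24 (SE; limma, adjusted p = 0.0082). It passed the threshold whichever sample was left out, except without quiescent sample 3 (adjusted p = 0.0559). Its neighbour at chr10:19503858-19504800 held 163, 106 and 208 in quiescent samples, against 50.7, 70.5 and 76.9 in proliferating samples. This difference of 1.22 ± 0.29 (adjusted p = 0.0422) was lost whichever sample was left out, and the adjusted p was 0.0557 with library totals. The most distant of the group, at chr10:19494333-19495295, held 642, 632 and 740 in quiescent and 414, 355 and 286 in proliferating samples. Its log2 difference was 0.94 ± 0.17 (adjusted p = 0.0184), and the groups stood well apart. Nearer the gene, chr10:19559475-19560177 held 173, 187 and 133 in quiescent and 107, 64.1 and 61.9 in proliferating samples. Here the lowest quiescent and the highest proliferating sample came closer, and the log2 difference was 1.10 ± 0.27 (adjusted p = 0.0446). The strongest peak at the Ifngr1 start itself averaged 641 ± 33.7 in quiescent and 663 ± 81.4 in proliferating samples, a difference of -0.04 that did not pass (adjusted p = 0.884).

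Ifnar1, a chain of the type I interferon receptor, lies on chromosome 16 between Ifnar2, its partner chain, and Ifngr2, the signalling chain of the interferon gamma receptor. The only peak of all 290 that limma called lower in quiescent samples without the block lay here, at chr16:91466567-91466978, 18.2 kb before the Ifnar1 start. It held 37.0, 16.2 and 30.8 in quiescent samples, against 62.0, 68.0 and 93.7 in proliferating samples. The highest quiescent sample stayed below the lowest proliferating one, and the log2 difference was -1.44 ± 0.36 (limma, adjusted p = 0.0475). This is a weak peak, with 10 estimated reads in quiescent sample 2 and 24 in proliferating sample 1. A second peak, chr16:91455817-91456240, 29.0 kb before the start, ran the other way, with 135, 175 and 119 in quiescent and 69.3, 63.6 and 77.2 in proliferating samples. Its log2 difference was 1.005 ± 0.229 (adjusted p = 0.0357), or adjusted p = 0.0774 with library totals. The start peak of Ifnar1 was lower in every quiescent sample, at 364, 483 and 472, against 512, 743 and 847 in proliferating samples. That difference of -0.65 ± 0.21 did not pass (adjusted p = 0.0973), and passed with the replicate block (adjusted p = 0.00632) and with library totals (adjusted p = 0.0291). With the block, Ifnar1 had 1 peak higher and 4 lower of 13. Ifnar2 had 1 higher and 1 lower of 10, and Ifngr2 2 higher of 10. Over all tested peaks the block called 10.2% higher and 8.14% lower. Without it limma called none of the 20 peaks of Ifnar2 and Ifngr2 (5 at an unadjusted p under 0.05). Of those 20, totals called 2 and median-of-ratios scaling 4, against 14.9% and 14% of all tested peaks. Of all 87411 tested peaks, limma gave 21185 an unadjusted p under 0.05. At the Ifnar2 start the means were 142 ± 7.18 in quiescent and 141 ± 28.4 in proliferating samples. At the Ifngr2 start they were 1541 ± 113 in quiescent and 1336 ± 38.8 in proliferating samples, a log2 difference of 0.20 that passed with median-of-ratios scaling alone (adjusted p = 0.0158).

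The RNA sensors showed no called peak among 12, with a median of 0.04 that was -0.06 with median-of-ratios scaling and -0.32 with totals, and limma gave 1 of the 12 an unadjusted p under 0.05. No peak of these was called with the block or the other scalings. At the start of Ddx58, which encodes the sensor RIG-I, the signal averaged 240 ± 13.3 in quiescent and 244 ± 39.8 in proliferating samples. At the start of Ifih1, which encodes the sensor MDA5 of long duplex RNA, it averaged 324 ± 31.8 in quiescent and 418 ± 27.8 in proliferating samples. The log2 difference of -0.37 ± 0.15 at Ifih1 had an adjusted p of 0.180 and did not pass in any of the scalings. Dhx58, which encodes the related protein LGP2, had 353 ± 38.9 in quiescent and 351 ± 12.6 in proliferating samples at an end of the gene.

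The transcription factor genes had 6 peaks called higher (7.14%, against 4.01% of all tested peaks) and none called lower among 84 tested, with a median of 0.22. That median was -0.01 with totals, where 59 of the 84 lay above the median of all peaks. With the replicate block 16 were higher (19.0%, against 10.2% of all tested peaks) and 2 lower (2.38%, against 8.14%). Of the 7 genes, Irf2 and Irf1 held all 6 called peaks. Irf2 binds the same DNA elements as Irf1 and is known mainly as a repressor of interferon-induced transcription.

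Irf2 had more peaks than any of the other genes, 45 with 43 tested. The log2 difference was above 0 at 34 of the 43, with a median of 0.42, or 0.26 with totals and 0.52 with median-of-ratios scaling. The median log2 deviation from the peak mean over all samples was 0.433, 0.165 and 0.046 in quiescent samples 1, 2 and 3, so it was largest in sample 1. In proliferating samples 1, 2 and 3 it was -0.173, -0.216 and -0.206. Of the 43 peaks, 5 were called, all higher (11.6%, against 4.01% of all tested peaks). With the block 14 were higher (32.6%, against 10.2%) and 1 lower (2.33%, against 8.14%). Of the 5, 3 lay in the gene body, 49.3, 52.9 and 78.0 kb after the start, and the other 2 lay 38.4 and 42.7 kb past the far end of the gene. The strongest, chr8:46788999-46790212, held 1476, 1656 and 1843 in quiescent samples, against 974, 941 and 1038 in proliferating samples. The proliferating samples lay close together and all quiescent ones above them, with a log2 difference of 0.75 ± 0.12 (limma, adjusted p = 0.0137). A weak peak a few kb on, chr8:46792681-46793058, held 51.6, 40.4 and 48.0 in quiescent and 15.7, 18.4 and 11.9 in proliferating samples. It had the largest difference of the 5, 1.56 ± 0.34 (adjusted p = 0.0307), on 23 estimated reads in quiescent sample 2 and 7 in proliferating sample 1. Farther along the gene, chr8:46817773-46820026 held 1166, 879 and 731 in quiescent samples, against 529, 351 and 424 in proliferating samples. The spread among quiescent samples was wide here, yet the groups did not overlap, and the log2 difference was 1.08 ± 0.21 (adjusted p = 0.0221). Past the gene, chr8:46890186-46891054 held 189, 219 and 234 in quiescent and 126, 86.0 and 117 in proliferating samples, a difference of 0.97 ± 0.21 (adjusted p = 0.0323). Close by, chr8:46885863-46888017 held 1250, 1026 and 1074 in quiescent and 713, 772 and 831 in proliferating samples. Its difference was the smallest of the called peaks, 0.53 ± 0.13 (adjusted p = 0.0468), and the call was lost whichever sample was left out. The Irf2 start peak, over the promoter printed above, averaged 740 ± 57.0 in quiescent and 786 ± 99.4 in proliferating samples (log2 difference -0.08, adjusted p = 0.771).

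Irf1, an activator of interferon-induced and antigen presentation genes, had 1 called peak among 27, at chr11:53747776-53749036, 20.98 kb before its start. It held 505, 540 and 490 in quiescent samples, against 281, 351 and 332 in proliferating samples. The quiescent samples were tightly grouped and all higher, and the log2 difference was 0.67 ± 0.15 (limma, adjusted p = 0.0349). At the Irf1 start the signal averaged 928 ± 213 in quiescent and 905 ± 114 in proliferating samples. The remaining factors had no peak called by limma among 14, none with an unadjusted p under 0.05 or with the block, and 1 with median-of-ratios scaling. At the start of Irf7, which drives interferon transcription, the signal averaged 1316 ± 212 in quiescent and 1424 ± 40.1 in proliferating samples. At Irf9, the DNA-binding partner of Stat2, the values were 511 ± 83.2 in quiescent and 573 ± 103 in proliferating samples. Stat2 had 273 ± 29.5 in quiescent and 262 ± 35.6 in proliferating samples. Irf3 and Irf5, which act downstream of innate sensors, had log2 differences of -0.17 and -0.31, neither of which passed (adjusted p = 0.445 and 0.212).

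**Figure D3:**
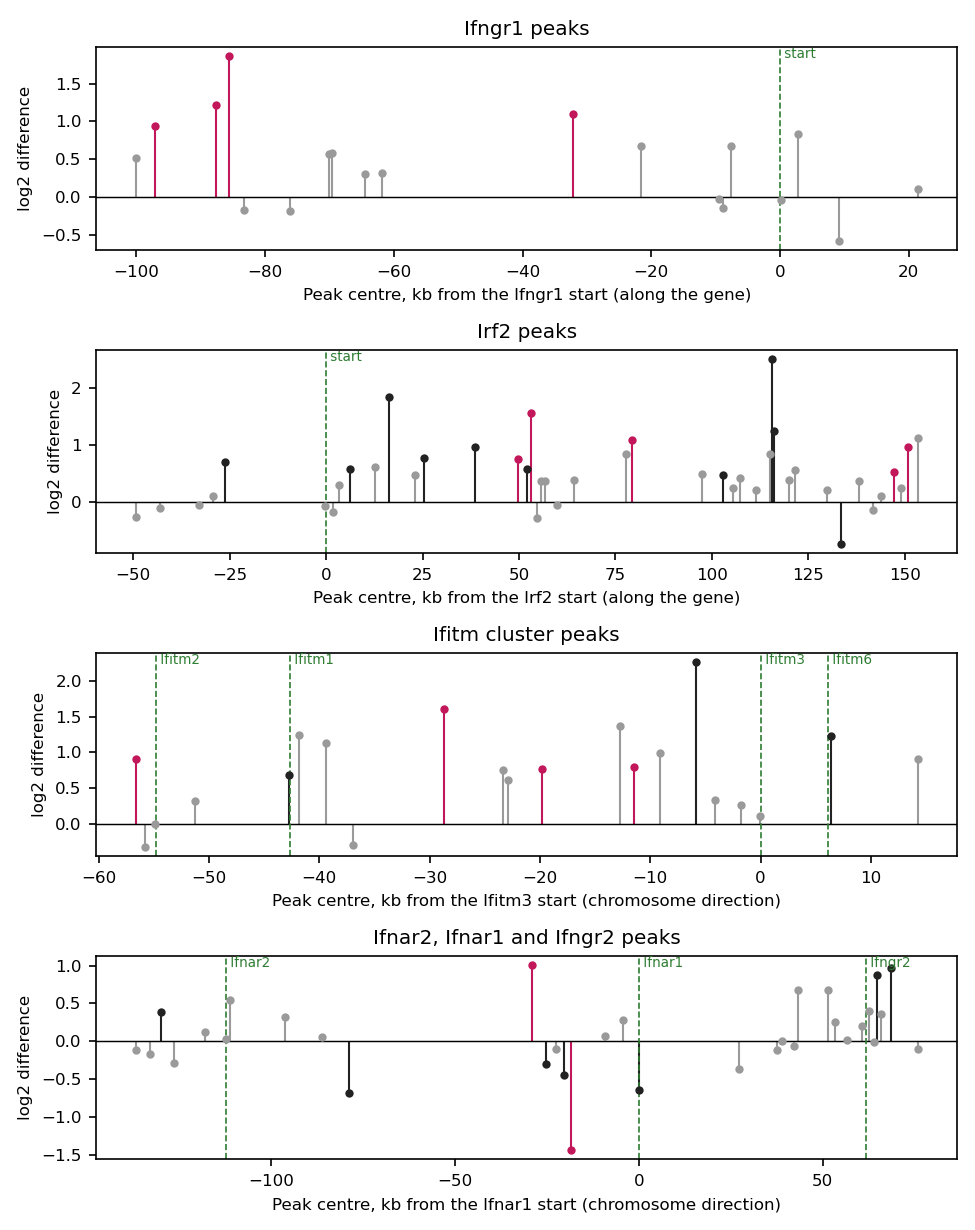
Log2 difference in signal, quiescent minus proliferating, of each tested peak against its distance in kb from a gene start (dashed green lines mark starts) at Ifngr1, Irf2, the Ifitm cluster and the Ifnar2, Ifnar1 and Ifngr2 cluster. Red peaks passed the threshold, black peaks passed it with the replicate block alone and grey peaks passed neither; at Ifngr1 the called peaks lie 31.8 to 96.7 kb before the start, and the start peak lies near 0.

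The antiviral effector genes had 6 peaks called higher (10%, against 4.01% of all tested peaks) and none called lower among 60 tested. Their median was 0.16, or -0.09 with totals, where 38 of the 60 lay above the median of all peaks. With the block 13 were higher (21.7%, against 10.2% of all tested peaks) and 4 lower (6.67%, against 8.14%). Of the 6 called peaks, 4 lay in the Ifitm cluster on chromosome 7, whose genes encode small membrane proteins that block the entry of viruses into the cell. Its 4 genes Ifitm1, Ifitm2, Ifitm3 and Ifitm6 had 21 tested peaks with a median of 0.76, or 0.32 with totals and 0.59 with median-of-ratios scaling, and 18 of the 21 were above 0. Ifitm6 had no called peak without the block.

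The peak chr7:140981661-140982510, 13.6 kb from the Ifitm1 start, held 290, 411 and 420 in quiescent samples, against 118, 95.0 and 154 in proliferating samples. The lowest quiescent sample was far above the highest proliferating one. The means were 374 ± 72.7 in quiescent and 123 ± 29.9 in proliferating samples (SD, n = 3 each), and the log2 difference was 1.61 ± 0.24 (limma, adjusted p = 0.0106). At chr7:140953579-140954610, which lies 0.227 kb past the end of Ifitm2, the signal was 396, 458 and 409 in quiescent and 245, 230 and 198 in proliferating samples. Both groups were compact and separate (log2 difference 0.91 ± 0.16, adjusted p = 0.0175). Between Ifitm1 and Ifitm3, chr7:140998662-140999927 was the strongest called peak of the cluster, with 1023, 1228 and 1482 in quiescent and 779, 648 and 695 in proliferating samples. All quiescent samples were higher (log2 difference 0.80 ± 0.16, adjusted p = 0.0233). In the same interval chr7:140990289-140991644 held 252, 225 and 238 in quiescent samples, against 156, 141 and 125 in proliferating samples. Its log2 difference of 0.76 ± 0.18 had an adjusted p of 0.0391, and the call was kept in 1 of the 6 fits that left out a sample.

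At the gene starts of the cluster, none was called. The Ifitm6 start peak came nearest, with 109, 80.9 and 74.9 in quiescent and 54.5, 27.9 and 31.8 in proliferating samples. The groups did not overlap, the log2 difference was 1.23 ± 0.32 (limma, adjusted p = 0.0518), and it passed with the replicate block (adjusted p = 0.00842). The Ifitm1 start peak held 109, 104 and 125 in quiescent and 58.5, 73.7 and 77.0 in proliferating samples, a difference of 0.69 ± 0.22 (adjusted p = 0.0989, and 0.0493 with the block). Ifitm2 averaged 183 ± 24.4 in quiescent and 182 ± 7.57 in proliferating samples at its start, and Ifitm3 53.1 ± 12.9 in quiescent and 48.5 ± 9.77 in proliferating samples.

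Rsad2 encodes viperin, an enzyme that makes a chain-terminating nucleotide. Its peak at chr12:26459998-26460630, 3.55 kb before the start, held 294, 197 and 304 in quiescent samples, against 145, 104 and 143 in proliferating samples. Quiescent sample 2 was the lowest of its group and still above all proliferating samples (log2 difference 1.01 ± 0.24; limma, adjusted p = 0.0389). The peak over the printed Rsad2 promoter averaged 381 ± 67.7 in quiescent and 364 ± 23.5 in proliferating samples (log2 difference 0.05, adjusted p = 0.883). Oas3 encodes an enzyme that makes oligoadenylates on sensing duplex RNA and so activates an RNase. Inside the gene, 1.44 kb from the start, chr5:120775077-120776222 held 334, 396 and 414 in quiescent and 253, 229 and 245 in proliferating samples. The proliferating values were tightly grouped and lower (log2 difference 0.65 ± 0.16, adjusted p = 0.0466). The Oas3 start peak was weak, 58.9 ± 18.1 in quiescent and 44.9 ± 2.74 in proliferating samples, and did not pass (adjusted p = 0.514).

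The Ifit genes encode proteins that bind foreign RNA ends and had no peak called by limma among 7, with 3 at an unadjusted p under 0.05. The block called 2 of the 7, totals 1 and median-of-ratios scaling 2, against 18.3%, 14.9% and 14% of all tested peaks. The Ifit1 start peak held 213, 192 and 252 in quiescent samples, against 139, 148 and 153 in proliferating samples. It was higher in every quiescent sample (log2 difference 0.56 ± 0.18; limma, adjusted p = 0.102, and 0.0442 with the block). At Ifit2, also on chromosome 19, the start peak ran the other way, with 423, 424 and 437 in quiescent and 509, 600 and 632 in proliferating samples. The groups did not overlap there either (log2 difference -0.43 ± 0.14, adjusted p = 0.106, and 0.0404 with the block or 0.0492 with library totals). Ifit3 averaged 249 ± 37.7 in quiescent and 201 ± 47.2 in proliferating samples, a difference of 0.32 that did not pass (adjusted p = 0.405). So the start peaks of Ifit1 and Ifit2 lay on opposite sides of 0, and neither passed in the fit of the deposited signal without the block. The start peaks of Oas1a, Oas2, Oasl2, Mx1, Mx2, Isg20, Eif2ak2 and Adar had log2 differences of -0.36 to 0.11, and none of them passed. Oasl1, which encodes a relative of the Oas enzymes, averaged 1200 ± 62.5 in quiescent and 1425 ± 113 in proliferating samples at its strongest start peak (log2 difference -0.25, adjusted p = 0.229). A weaker start peak of Oasl1 had a difference of 0.71 ± 0.46 (adjusted p = 0.385) and passed with the block (adjusted p = 0.0259). Its values were 90.5, 184 and 242 in quiescent and 50.8, 115 and 156 in proliferating samples, so the groups overlapped while each quiescent sample was above the proliferating sample of its number. RefSeq lists Mx1 and Mx2 as transcribed pseudogenes in the reference genome.

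ISG15 is a ubiquitin-like protein, and 4 further genes of the 47 remove it or encode ubiquitin ligases. These 5 genes had 1 peak called higher (3.03%, against 4.01% of all tested peaks) and none called lower among 33. Their median was 0.25, or -0.12 with totals, where 21 of the 33 lay above the median of all peaks. The called peak lay inside Usp18, whose product removes ISG15 from proteins and dampens type I interferon receptor signalling. At chr6:121251111-121252147 it held 199, 187 and 213 in quiescent samples, against 131, 101 and 92.5 in proliferating samples. The quiescent samples were all higher (log2 difference 0.89 ± 0.20; limma, adjusted p = 0.0368). The strongest peak at an end of Usp18 ran the other way without passing, 609 ± 24.5 in quiescent and 776 ± 89.0 in proliferating samples (log2 difference -0.34, adjusted p = 0.169). The Isg15 start peak, over the run of cores printed above, averaged 213 ± 48.7 in quiescent and 164 ± 6.13 in proliferating samples. That difference of 0.35 ± 0.21 did not pass (adjusted p = 0.346). Trim25, a ubiquitin ligase that acts on RIG-I, had 234 ± 26.4 in quiescent and 205 ± 71.8 in proliferating samples at its start. Trim30a had the second strongest start peak of the 47 genes, with 1899 ± 212 in quiescent and 2012 ± 204 in proliferating samples (adjusted p = 0.730). Rnf213 averaged 64.9 ± 13.1 in quiescent and 53.6 ± 16.8 in proliferating samples.

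The antigen presentation genes had 1 peak called higher (5%, against 4.01% of all tested peaks) and none called lower among 20. Their median was 0.21, or -0.11 with totals, where 15 of the 20 lay above the median of all peaks. The called peak lay in Nlrc5, the transactivator of the MHC class I genes, at chr8:94447525-94448592. It held 283, 440 and 529 in quiescent samples, against 226, 173 and 213 in proliferating samples. Quiescent sample 1 came close to the proliferating samples without reaching them (log2 difference 0.99 ± 0.24; limma, adjusted p = 0.0449). At the strongest peak at an end of Nlrc5 the means were 1089 ± 39.4 in quiescent and 1276 ± 33.7 in proliferating samples (log2 difference -0.23, adjusted p = 0.233). B2m, the light chain of MHC class I, had the strongest start peak of the 47 genes, with 3085 ± 246 in quiescent and 2804 ± 261 in proliferating samples. Its difference of 0.14 did not pass (adjusted p = 0.481) except with median-of-ratios scaling (adjusted p = 0.00752). Tap1, a chain of the peptide transporter, had 435 ± 75.4 in quiescent and 470 ± 4.32 in proliferating samples.

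The immunity-related GTPases Igtp and Irgm1, which act on the vacuoles of intracellular microbes, had no peak called by limma among 6, none with an unadjusted p under 0.05, and none with either of the other scalings or the block. Their median was -0.08, or -0.25 with totals and 0.02 with median-of-ratios scaling. At the start, Igtp averaged 188 ± 14.3 in quiescent and 150 ± 11.4 in proliferating samples, and Irgm1 719 ± 120 in quiescent and 877 ± 31.7 in proliferating samples. The genes grouped as others, Xaf1, Parp14, Ifi35, Ifi44 and Sp100, had no peak called by limma among 23 and none with an unadjusted p under 0.05, with a median of -0.12, or -0.39 with totals. With totals 1 of the 23 was lower, and the block and median-of-ratios scaling called none. Ifi44 had the largest start difference of these, with 199 ± 65.9 in quiescent and 135 ± 45.6 in proliferating samples (log2 difference 0.55 ± 0.32; limma, adjusted p = 0.334).

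The position of the peaks relative to the genes was then examined. Of the 290 tested peaks, 72 lay within 1 kb of the start of their gene, or of either end where no promoter window was given. These held 0 called peaks, against 2.73% of the 14311 tested peaks within 1 kb of any gene start. Limma gave 9 of the 72 an unadjusted p under 0.05 (5 higher, 4 lower), against 2044 of those 14311. With the replicate block 6 of the 72 were called (4 higher and 2 lower, or 8.33%, against 9.27% of all start peaks). With recovered reads 3 were called with totals and 5 with median-of-ratios scaling, and without proliferating sample 1 there were 3. The median log2 difference of the 72 was 0.03, against -0.07 for all start peaks, and with totals it was -0.11, where 49 of the 72 lay above the median of all peaks. All 20 called peaks were among the 218 farther away (9.17%), against 7.5% of the 73100 peaks farther from any start. Their median was 0.23, against 0.01 for all such peaks. Of the 20, 2 lay within 2 kb of the start, at Oas3 and Ifitm2.

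Taking the strongest start peak of each gene, 23 of the 47 were above 0 and 24 below, with a median of -0.0015. That median was -0.09 with totals and 0.18 with median-of-ratios scaling, and 37 of the 47 lay above the median of all peaks with either. Of the 40 genes with a promoter window, the 17 with an ISRE core had start-peak differences of -0.37 to 0.56 with a median of 0.05. The 23 without one ranged over -0.65 to 1.23 with a median of 0.00. None of either was called, and 1 of the 17 and 4 of the 23 were called with the block. No match in this window says only that these letters are not in it.

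**Figure D4:**
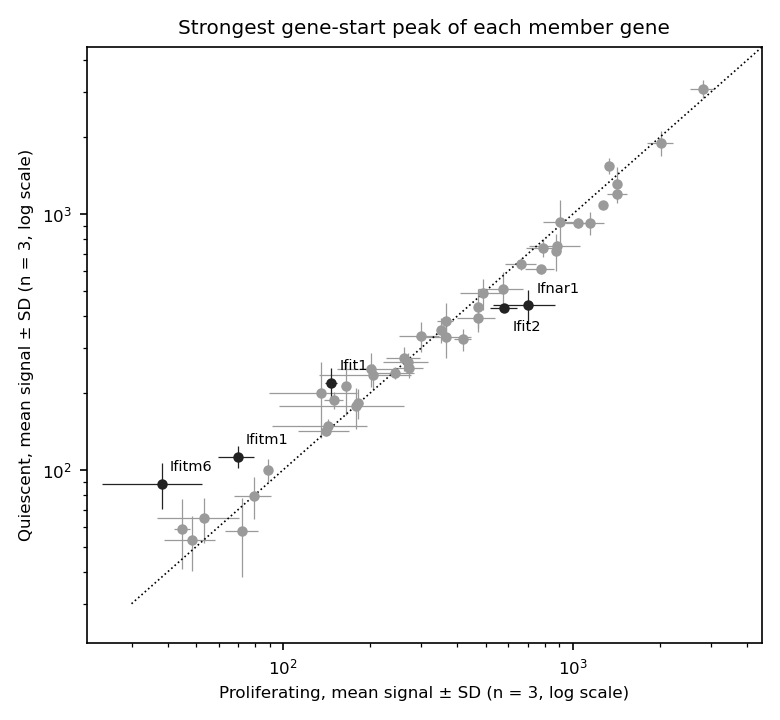
Mean deposited signal ± SD (n = 3 each) of the strongest start peak of each of the 47 genes, quiescent samples on the upright axis and proliferating samples on the level axis, both on log scales, with a dotted line of equal values. The 5 black, named points passed the threshold with the replicate block alone (Ifitm6, Ifitm1 and Ifit1 above the line, Ifnar1 and Ifit2 below it), and the grey points passed in neither fit and include Ifi44 (199 in quiescent, 135 in proliferating samples), near the log2 difference of Ifit1.

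The other genes of the interferon pathway, a list of 47 of which 45 had peaks, showed a like share of called peaks. The lists are not wholly separate, since a peak over genes of both counts in each, such as the start peak of Tap1 and Psmb9. Of 263 tested peaks, 12 were higher in quiescent samples and 5 lower (6.46%, against 6.72% of all tested peaks). With the block 26 were higher (9.89%, against 10.2% of all tested peaks) and 12 lower (4.56%, against 8.14%). Without proliferating sample 2 or 3 the counts called were 2 and 6, and without quiescent sample 2 or 3 limma called none. Limma gave 38 and 42 of the peaks an unadjusted p under 0.05 in these fits without a quiescent sample, and without proliferating sample 1 the count called was 28. Without quiescent sample 3, 16512 of all 87411 tested peaks had such a p. The median log2 difference was 0.13, or 0.05 without proliferating sample 1. With totals it was -0.13, which was 0.13 above the median of all peaks.

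Peaks of the kinases that act directly below the receptors were called in both directions. Jak1, which serves both receptors, had 5 higher and no lower peak among 34, all in the gene body, with log2 differences of 1.20 to 1.39 and adjusted p from 0.0152 to 0.0434. Those 5 are 14.7% of its tested peaks, where 4.01% of all were higher, and 1 of them, chr4:101247615-101248156, was lost with totals (adjusted p = 0.102). The strongest of the 5, chr4:101222858-101223800, held 217, 233 and 211 in quiescent samples, against 112, 82.4 and 65.1 in proliferating samples. Tyk2, the partner of Jak1 below the type I receptor, had a peak inside the gene with 422, 629 and 557 in quiescent and 146, 77.8 and 142 in proliferating samples. The groups stood far apart (log2 difference 2.16 ± 0.27; limma, adjusted p = 0.00773). Jak2, which serves the interferon gamma receptor, had a peak that was lower, with 813, 865 and 849 in quiescent and 1152, 1177 and 1313 in proliferating samples (log2 difference -0.52 ± 0.12, adjusted p = 0.0334). The Jak2 call was lost with median-of-ratios scaling (adjusted p = 0.255) and kept in 1 of the 6 fits that left out a sample.

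Socs3, an inhibitor of cytokine receptor signalling, had a higher peak 11.6 kb from its start (log2 difference 1.77 ± 0.45; limma, adjusted p = 0.0491, and 0.138 with totals or 0.0764 with median-of-ratios scaling). Among the innate sensing genes, a peak of Cgas, the sensor of cytosolic DNA, was lower (-0.62 ± 0.15, adjusted p = 0.0407, and 0.150 with median-of-ratios scaling). The kinase gene Tbk1 had 1 peak higher (0.59 ± 0.14, adjusted p = 0.0389) and 1 lower (-1.80 ± 0.40, adjusted p = 0.033). The lower Tbk1 peak was weak, with 13, 4 and 10 estimated reads in quiescent samples 1, 2 and 3. The Socs3 peak was also weak, with 5 estimated reads in proliferating sample 1.

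Among the remaining induced genes, the largest difference was at Ccl5, which encodes a chemokine. Its peak 13.7 kb from the start held 79.6, 87.3 and 116 in quiescent samples, against 17.8, 11.0 and 13.6 in proliferating samples (log2 difference 2.66 ± 0.32, limma, adjusted p = 0.00695). That peak rested on 7 estimated reads in proliferating sample 1. Trim34a had a peak with 476, 460 and 482 in quiescent and 256, 205 and 213 in proliferating samples (1.08 ± 0.16, adjusted p = 0.0106). Both groups were compact at Trim34a and apart by more than their spread. The start peak of Ifi204, a DNA-binding member of the interferon-inducible p200 family, was the only start peak called in this list, with 429, 336 and 307 in quiescent and 245, 135 and 104 in proliferating samples (1.22 ± 0.30, adjusted p = 0.0457). A peak in Parp9, which encodes an ADP-ribosyltransferase family member, was higher (1.38 ± 0.28, adjusted p = 0.0246, and 0.0599 with totals). A weak peak of the immunity-related GTPase gene Irgm2 was lower (-1.61 ± 0.39, adjusted p = 0.043).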

How the data were processed

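ATAC-seq signal was analysed in 6 mouse samples, 3 quiescent and 3 proliferating. Per the submitters' processing notes, Bowtie2, SAMtools and MACS2 were used with the genome build mm10. For their versions, their settings, the read offset and the counting: not given in the sources used here. In the table as deposited, each of 97124 peaks of a shared list has 1 scaled signal value in each sample. Scaled values are no counts, so limma 3.58.1 in R 4.3.3 was run on log2(signal + 1) with an intensity trend, without the weakest 10% of peaks by mean over all samples, with Benjamini-Hochberg adjustment over 87411 peaks and a threshold of 0.05.

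The low values lay on steps worth 1 read, and the steps changed with peak strength. Following them gave estimated reads, with 98.8% to 100% of the values of 1 to 1000 reads within 0.1 of a whole number. These reads were used in limma-voom with library totals or median-of-ratios scaling. In reads simulated for the 97124 peaks and scaled by the same steps, 99.4% to 99.7% of values per sample came back exactly. How the authors' scaling treats weak and strong peaks bears on the direction of small differences.

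The further alternatives were a pseudocount of 5, no filter, a filter of 25%, no intensity trend, the replicate number as a block, each sample left out, and other assignments of peaks to genes. Same-numbered samples deviated together from their group means (correlation across peaks of 0.43, 0.285 and 0.21 for numbers 1, 2 and 3), which is taken as pairing on the data alone, since the labels do not say what a number marks. Numbers 2 and 3 are not separated by this, as quiescent 2 with proliferating 3 gave 0.22 and quiescent 3 with proliferating 2 gave 0.146. All called peaks of the 47 genes and of the pathway list, and the strongest start peak of each of the 47, are named, except 1 peak of the pathway list that is counted but not reported here. These genes and lists were chosen with earlier results of these data known. No genome was used, so no sequence of a peak is printed. Python 3.11.15 with pandas 2.3.3, numpy 2.4.6 and matplotlib 3.10.9 was used.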

Additional observations from a re-analysis of the deposited data

How the results depend on the processing

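The 20 called peaks of the 47 genes became 6 without the intensity trend, 35 with reads scaled to totals, 45 with median-of-ratios scaling and 54 with the replicate block. Peaks in gene bodies alone gave 6 of 164 tested (3.66%, against 6.72% of all tested peaks), and a limit of 10 kb gave 9 of 221. The other 14 of the 20 were among the 126 tested peaks between genes (11.1%), which were assigned by the nearest gene. The 17 of the pathway list became 10, 26, 44 and 38 in the same fits, and the 5876 of all tested peaks 3247, 13029, 12212 and 15999. The 0 start peaks became 3 with totals, 5 with median-of-ratios scaling, 6 with the replicate block, 1 with the weakest 25% left out and 2 within 3 kb of the start. Of all called peaks, 59.6% were higher, against 33.6% with totals and 71.5% with median-of-ratios scaling. The median log2 difference of the 290 peaks, 0.124, was reversed to -0.090 with totals, 0.169 above the median of all peaks, and was 0.175 with median-of-ratios scaling. Leaving out 1 sample gave 0 to 30 called peaks of the 47 genes, 0 to 28 of the pathway list, 0 to 8241 of all tested peaks, 0 to 3 start peaks and a median of 0.088 to 0.175. The cause of these shifts was not tested.

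The replicate block ended none of the 20 calls and none of the 17. No called peak of either list changed sign in any of these fits. The filters, the intensity trend and the block leave the log2 difference as it is, so those fits could not change it. Another pseudocount or leaving out a sample cannot reverse groups that do not overlap, as at all of the 20 peaks. For these, only the read scalings could thus have changed the sign. For the 20 peaks, 120 values under other settings passed the threshold and 19 did not, and with a sample left out 35 passed and 85 did not. For the 17, these counts were 103 and 15, and 35 and 67. Depth limits the weakest peaks, since the lowest value among the 20 was 7 estimated reads. In the pathway list a called peak of Tbk1 held 4 estimated reads in quiescent sample 2. With 3 samples a group, a difference that did not pass is not shown to be absent.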
